A study of Homo sapiens with 4 samples.

Results

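PC14 is an established human non-small-cell lung cancer line, and its E-cadherin-low CD133-high cells are set here against its E-cadherin-low CD133-low cells. The comparison was chosen as the pair of sorted subpopulations that share the low E-cadherin gate and differ in the CD133 gate. It uses 2 of the 4 arrays of the study, 1 per subpopulation. The other 2 arrays hold E-cadherin-high CD133-high and E-cadherin-high CD133-low cells of the same line, and they show which differences are also found among E-cadherin-high cells. All 4 subpopulations came from 1 line kept in ordinary culture, and the labels name no drug or genetic change other than a reporter. Cells were sorted first by E-cadherin at the surface. The CD133 gate was then set on green fluorescent protein made from a lentiviral vector carrying the P1 promoter of the CD133 gene, so "CD133-high" means high activity of that promoter in the reporter and not a protein level. Whether RNA from several sorts was pooled is not given in the sources used here.

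E-cadherin is the adhesion molecule of epithelial junctions, and its loss marks the mesenchymal end of the epithelial to mesenchymal transition. CD133, or prominin-1, is a membrane glycoprotein used in lung and other tumours as a marker of stem-like cells. The study isolated both markers in combination so that epithelial and mesenchymal cells with high and low CD133 could be told apart. The comparison below therefore asks what accompanies high CD133 reporter activity in cells sorted as low for surface E-cadherin.

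The values were signals of Affymetrix probe sets on a linear scale, scaled so that the trimmed mean of each array was 500.1. The median probe set signal of each array, 53.7 to 60.3, served as a floor below which a signal was not counted as measured. Of 19775 genes with a probe set of their own, 13307 exceeded the floor on at least 1 array of the E-cadherin-low pair and 11468 on both. Genes above the floor numbered 12459 with high and 12316 with low CD133. The ratio of 3' to 5' signal was 1.78 and 1.53 for actin and 1.02 and 0.963 for GAPDH on the same 2 arrays, against 1.57 to 1.59 and 0.898 to 0.960 on the E-cadherin-high arrays. The actin and GAPDH ratios of the E-cadherin-low CD133-high array were thus the highest of the 4, and the part of that in the results was not tested. Each group is 1 array, so no difference has a replicate check, no p-value can be given, and what follows compares these arrays.

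The gene of the first gate read as sorted. CDH1, which encodes E-cadherin, had signals of 347 with high and 528 with low CD133 in the E-cadherin-low pair, against 5548 and 3546 in the E-cadherin-high pair. The gene of the second gate did not. PROM1, which encodes CD133, was under the floor of every array, with 10.3 and 4.79 in the E-cadherin-low pair and 12.1 and 29.7 in the E-cadherin-high pair. The CD133 gate thus has no support from the transcript itself on these arrays.

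Among E-cadherin-low cells, more genes were higher than lower with high CD133 reporter activity. At least 2-fold higher were 1142 of 13307 genes (8.58%), and at least 2-fold lower were 601 (4.52%). At 4-fold the counts were 218 (1.64%) and 83 (0.624%). Together these were 1743 genes (13.1%) at 2-fold. In the E-cadherin-high pair 710 of 13253 genes (5.36%) passed 2-fold upward and 456 (3.44%) downward, 1166 (8.8%) in all, and 94 (0.709%) and 62 (0.468%) passed 4-fold. The middle of the distribution was near 0, with a median log2 ratio of 0.02 and quartiles of -0.35 and 0.43. The excess of higher genes depended on the scaling: 65.5% of the called genes were higher with the deposited scaling, 59.9% after quantile normalization and 57.2% after setting equal array medians.

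**Figure D1:**
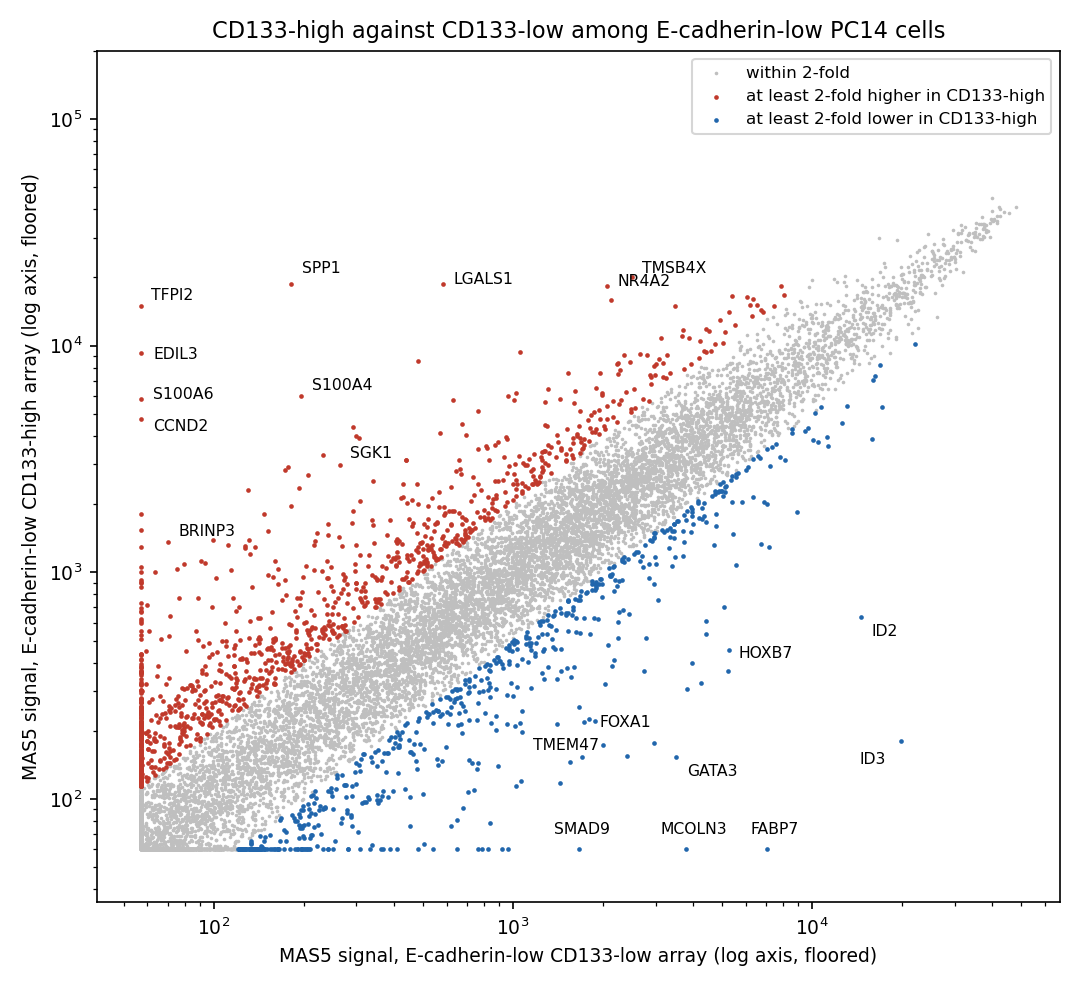
Signals of all 13307 measured genes in E-cadherin-low CD133-low cells (horizontal) and CD133-high cells (vertical), both on log axes, with signals under an array's floor drawn at the floor. Red points are the 1142 genes at least 2-fold higher and blue points the 601 genes lower by 2-fold or more; SPP1, LGALS1 and TFPI2 stand far above the diagonal, and ID3, ID2 and FABP7 far below it.

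Large ratios were found in bright as well as dim genes. SPP1, the secreted phosphoprotein osteopontin, had signals of 18750 with high and 182 with low CD133, a log2 ratio of 6.69. With E-cadherin high it read 428 and 176, a log2 ratio of 1.28, so its high signal stood on 1 of the 4 arrays. In RNA from a whole sorted population, more cells with a transcript and more of it per cell cannot be told apart. A dimmer second probe set of SPP1 gave a log2 ratio of at least 1.86. CCND2, the G1 cyclin D2, read 4749 against 11.8 in the E-cadherin-low pair and 418 against 66.5 in the E-cadherin-high pair. With CD133-low cells under the floor this is a difference of at least 83.3-fold. TFPI2, a secreted inhibitor of serine proteases that is kept in the matrix, read 14974 against 35.6, at least 262-fold higher. It went the other way in E-cadherin-high cells, with 121 with high and 1251 with low CD133.

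Several other genes at the top of the higher side had large ratios in both pairs. LGALS1, the secreted lectin galectin-1, had log2 ratios of 5.01 among E-cadherin-low and 3.17 among E-cadherin-high cells. S100A4, a calcium-binding protein linked to cell movement, had 4.93 and 4.16, and S100A6 of the same family had bounds of 6.67 and 4.03. APOBEC3B, a cytidine deaminase that edits DNA, read 8525 against 481 (4.15) and 6552 against 1757 (1.90). TUBB2B, a tubulin of the developing brain, had 4.14 and 2.63, MYOF, the membrane repair protein myoferlin, had 4.04 and 2.99, and ROBO2, an axon guidance receptor, had 3.91 and 1.98. FABP4, a fatty acid carrier of adipocytes, had bounds of 4.76 and 2.06.

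The lower side held a fatty acid carrier, a channel and regulators of transcription. ID3, which holds basic helix-loop-helix factors in inactive dimers, read 181 with high and 19862 with low CD133, a log2 ratio of -6.78. ID2, its relative, read 636 and 14620, a log2 ratio of -4.52. Both were also lower in the E-cadherin-high pair, with -4.53 and -2.94. TBX2, a T-box repressor, had -3.48 and -2.03. FABP7, a fatty acid carrier of glia, read 28.9 against 7086, at least 118-fold lower, and its E-cadherin-high signals were 37.5 and 377. FABP7 was therefore bright on 1 of the 4 arrays, that of E-cadherin-low CD133-low cells. MCOLN3, a cation channel of endosomes, was at least 62.9-fold lower, and SMAD9, a transducer of BMP signals, at least 27.6-fold lower. In the E-cadherin-high pair MCOLN3 and SMAD9 had log2 ratios of -4.37 and -2.03.

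Some of the differences were also found at 2-fold in the E-cadherin-high pair, which shares no array with this one. Of the 1142 higher genes, 345 (30.2%, against 5.36% of all genes in that pair) were at least 2-fold higher there too, which is 48.6% of the 710 higher genes of that pair. Of the 601 lower genes, 158 (26.3%, against 3.44%) were at least 2-fold lower there too, which is 34.6% of its 456. Of genes that passed 4-fold in the E-cadherin-low pair, 116 of 218 higher ones (53.2%) and 57 of 83 lower ones (68.7%) passed 2-fold the same way in the other. The difference between the pairs was not tested for any gene, since each pair has 1 array per group.

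Other genes past 2-fold in the E-cadherin-low pair were near equal in the E-cadherin-high pair. Within 1.5-fold there were 463 of the 1142 higher genes (40.5%) and 269 of the 601 lower genes (44.8%), below the 74.4% of all 13253 genes measured in that pair. The size of this class moved with the settings. With equal array medians 334 higher genes were near equal and 370 shared, and for the lower genes the counts were 387 and 153. Of the genes past 4-fold, 45 higher and 13 lower ones were near equal, fewer than the 116 and 57 that passed 2-fold in both pairs. Another 240 and 124 genes went the same way between 1.5-fold and 2-fold, and 54 and 18 lay below the floor on both E-cadherin-high arrays. In the opposite direction at 2-fold or more were 21 of the higher and 11 of the lower genes. Of the near-equal genes, 363 higher and 234 lower ones were above the floor on all 4 arrays, so that the array that stood apart could be read. For the higher ones, the E-cadherin-low CD133-high array alone lay at least 1.5-fold above both E-cadherin-high arrays in 142 (39.1%), and the CD133-low array alone lay below both in 129 (35.5%). For the lower ones, the CD133-high array alone lay below both in 120 (51.3%) and the CD133-low array alone lay above both in 40 (17.1%). Either array of the pair could thus be the one that differed from the rest.

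**Figure D2:**
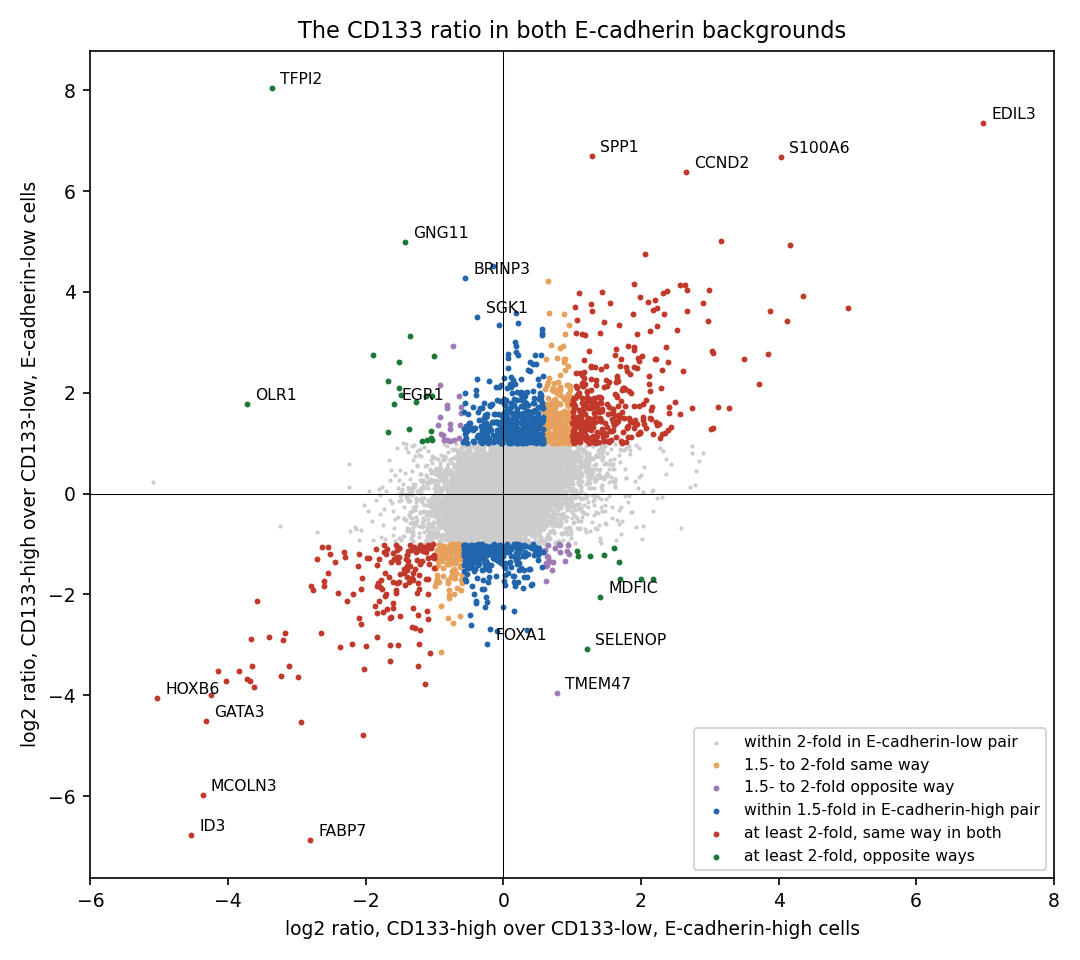
Log2 ratio of CD133-high over CD133-low signal in E-cadherin-high cells (horizontal) and E-cadherin-low cells (vertical), 1 point per gene measured in both pairs. Red points pass 2-fold the same way in both pairs (345 higher and 158 lower); blue points pass it among E-cadherin-low cells and are within 1.5-fold among E-cadherin-high cells (463 and 269); green points pass it in opposite directions, with TFPI2 at 8.04 and -3.37.

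The near-equal genes with the largest ratios included secreted, cytoskeletal and signalling proteins. SGK1, a kinase induced by glucocorticoids and serum, read 2987 with high and 264 with low CD133, against 175 and 228 among E-cadherin-high cells. Its log2 ratio was 3.50, with the CD133-high array alone standing apart. TMSB4X, which encodes the actin-sequestering peptide thymosin beta-4, read 20044 against 2500, with 1605 and 1424 in the E-cadherin-high pair. CD133-high cells thus had an 8.02-fold higher signal in this pair. BRINP3, a secreted neural protein, read 1355 against 70.5 (4.27), MFAP5, a microfibril protein, 717 against 59.6 (3.59), and CELF2, an RNA-binding regulator of splicing, 774 against 76.5 (3.34). On the E-cadherin-high arrays these 3 genes had signals between 72.1 and 124. SFN, the epithelial cell cycle protein 14-3-3 sigma, showed the other arrangement. It read 9382 in CD133-high cells against 16199 and 10964 with E-cadherin high, and was low in E-cadherin-low CD133-low cells with 1054 (3.15).

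Near-equal genes on the lower side included a lineage factor and a growth factor. FOXA1, a pioneer transcription factor of endodermal epithelia, read 226 with high and 1798 with low CD133, with 2016 and 2381 among E-cadherin-high cells. Its log2 ratio was -2.99 and that of its other probe set -3.01. The signal was thus low on 1 array, that of E-cadherin-low CD133-high cells. FAM169A had the same arrangement, with 215 against 1402, 1738 and 1370, as did SLC44A1, a choline transporter, with 1339 against 6778, 4767 and 4283. BMP7, a secreted ligand of the BMP family, read 107 against 707, with E-cadherin-high signals of 329 and 349 that lay between them. TMEM47, a small protein of cell junctions with a 1.71-fold opposite ratio in the other pair, read 154 against 2406, with 2304 and 1347 among E-cadherin-high cells, and its other probe set had log2 ratios of -2.20 and 1.29.

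**Figure D3:**
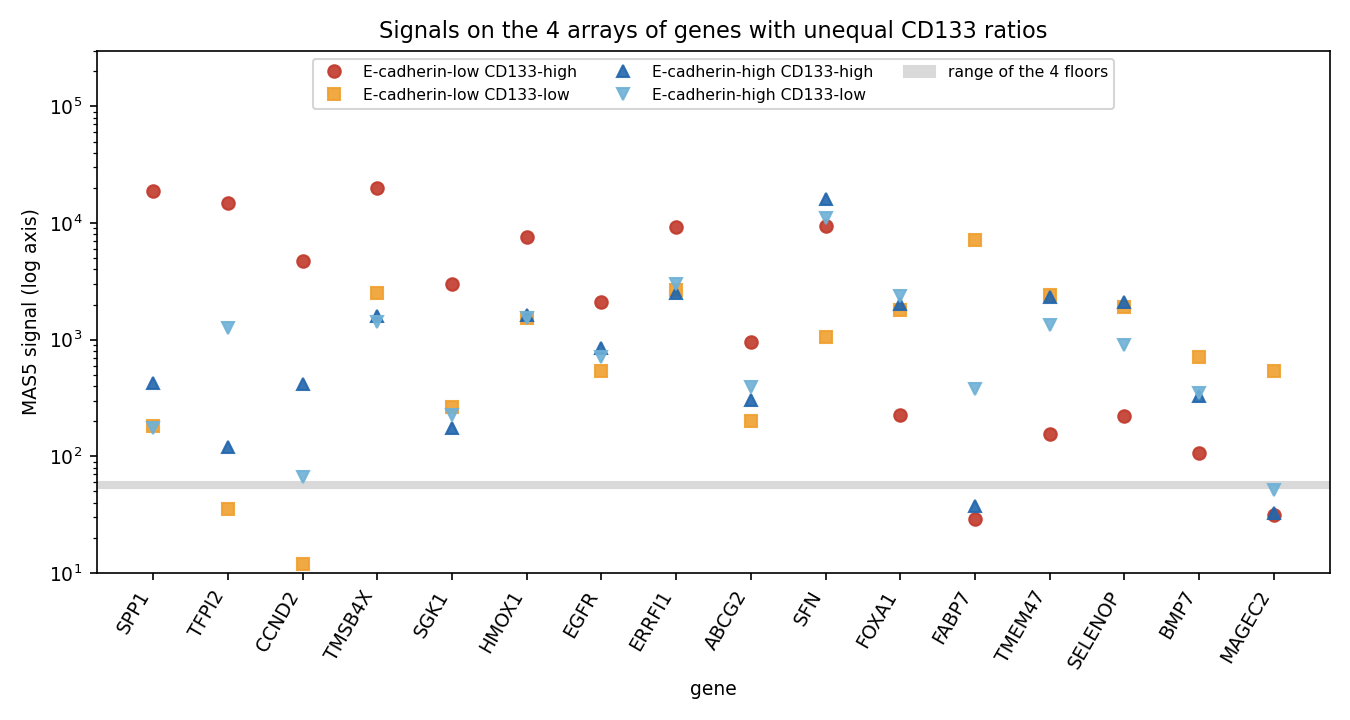
MAS5 signal (log axis) of 16 genes on the 4 arrays, 1 symbol per array, with the range of the 4 floors (53.7 to 60.3) as a grey band. SPP1, TMSB4X, SGK1 and HMOX1 have 1 high red symbol (E-cadherin-low CD133-high) over 3 lower ones, FOXA1 and SELENOP have 1 low red symbol, and FABP7 and MAGEC2 have 1 high orange symbol (E-cadherin-low CD133-low).

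Immediate early genes are switched on within minutes of a growth factor, stress or calcium signal by factors already present in the cell, and many encode transcription factors of the FOS, JUN, EGR and NR4A families. Among E-cadherin-low cells 12 of 21 measured members (57.1%, against 8.58% of all genes) were at least 2-fold higher with high CD133 and 0 were lower, with a median log2 ratio of 1.17 against 0.02 for all genes. For each list below, the shares to read its counts against are 8.58% higher and 4.52% lower in the E-cadherin-low pair, and 5.36% and 3.44% in the E-cadherin-high pair. In the E-cadherin-high pair 1 of 21 was higher and 1 lower, with a median of 0.11. Of the 20 members above the floor on all 4 arrays, 15 had their highest signal on the E-cadherin-low CD133-high array, as did 3026 of 10891 genes (27.8%) at large. The list median stayed between 0.89 and 1.17 under the alternative settings.

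The members with the largest ratios were nuclear factors. EGR3, a zinc finger factor, read 1280 with high and 127 with low CD133 (3.34), with 327 and 169 among E-cadherin-high cells. NR4A2, an orphan nuclear receptor, read 18316 against 2060 (3.15) and 10340 against 4560 (1.18), the single member called in both pairs in the same direction. GADD45A, a stress-induced growth arrest protein, read 2852 against 663 (2.10), with 1600 and 1482 in the other pair. JUN, the partner of FOS in AP-1, read 599 against 200, 247 and 187. FOS read 2329 against 1026, but its E-cadherin-high signals of 1037 and 1934 ran the other way (1.18 and -0.90). ATF3, a stress-induced repressor, had 1.71 and -0.61, NR4A1 had 1.58 and -0.51, and MAFF had 1.29 and -0.57. The ratio was higher in the E-cadherin-low than in the E-cadherin-high pair for 19 of the 20 members above all 4 floors, against 5480 of 10891 genes at large (50.3%).

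Genes induced downstream of the kinase ERK, which dampen or carry its signal, went partly the same way. At least 2-fold higher were 9 of 20 (45.0%) and lower 1 of 20, with a median of 0.48 among E-cadherin-low and 0.03 among E-cadherin-high cells. PHLDA1, a pleckstrin homology-like protein, read 1469 against 241 (2.61), with 213 and 164 in the E-cadherin-high pair. EGR1, the zinc finger factor of the early growth response, read 6515 against 1902 (1.78), and 1824 against 5504 (-1.59) among E-cadherin-high cells. Both other probe sets of EGR1 ran the same ways, with 1.443 and 1.503 in the first pair and -1.45 and -1.54 in the second. DUSP6, the phosphatase that removes phosphate from ERK, was higher in both pairs, by 1.10 and 2.28. DUSP7, a relative, had -1.08. The ETS factors ETV1, ETV4 and ETV5 had 1.31, 1.11 and 1.07. In the E-cadherin-high pair ETV1 had 0.84 and ETV5 had 0.61. Other probe sets of ETV1 had 0.75 to 1.92 in the E-cadherin-low pair and 1.07 to 1.66 in the E-cadherin-high pair. Those of ETV5 above both floors had 0.33 to 0.79 in the E-cadherin-low pair, short of 2-fold, and 1 more had a bound of -0.35.

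Serum response factor drives many immediate early genes through the CArG box, a 10-base element with CC and GG around an A and T core. In the 250 bases upstream of the start in RefSeq (GRCh38.p14) the box, searched on both strands, was found in 1.14% of 27305 promoters. It was in 0 of 19 promoters of the immediate early list and 1 of 13 of the ERK list. That 1 was EGR1, shown here because the gene ran in opposite directions in the 2 pairs. The sequence is chr5:138465229-138465478 on the plus strand, 5' to 3', with its 2 CArG boxes in capitals, which begin 105 and 83 bases before the start.
EGR1: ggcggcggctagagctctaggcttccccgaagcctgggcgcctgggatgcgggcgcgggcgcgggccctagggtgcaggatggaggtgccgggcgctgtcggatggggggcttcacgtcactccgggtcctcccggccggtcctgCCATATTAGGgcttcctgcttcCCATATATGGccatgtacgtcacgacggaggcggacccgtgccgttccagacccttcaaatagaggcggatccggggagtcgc
A match describes letters in this window and is not evidence of binding, and boxes outside the window were not searched for.

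The EGF receptor and its relatives lie upstream of ERK, and lung cancers often depend on them. Of 11 measured members of the family and its ligands, 5 (45.5%) were at least 2-fold higher and 1 lower among E-cadherin-low cells, against 1 and 3 of 10 in the E-cadherin-high pair. EGFR itself read 2118 with high and 535 with low CD133 (1.99), with 851 and 709 among E-cadherin-high cells (0.26). Its other probe sets above the floor on both arrays of the pair had log2 ratios of 0.25 to 1.96 in the same direction. One more, with the CD133-low array at the floor, had a bound of 1.02. ERBB3, the kinase-impaired partner, read 2385 against 623, with 2213 and 1791 in the other pair, so the low value was that of E-cadherin-low CD133-low cells. ERRFI1, a feedback inhibitor of EGFR, read 9205 against 2668, 2490 and 3018, high on 1 array. HBEGF, a ligand, was lower in both pairs, with 366 against 2754 and 872 against 8016. The median of the list was 0.37, and with single settings changed it ranged from 0.25 to 1.62.

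Other receptors gave a mixed picture. Of 30 measured receptor kinases and ligands outside the EGFR family, 7 were at least 2-fold higher and 1 lower, with a median of 0.11. AXL, a receptor kinase of mesenchymal cells, read 1518 against 151 (3.32), with a bound of 2.24 in the E-cadherin-high pair. HGF, the ligand of MET, read 7811 against 2277 (1.78), while MET itself had -1.06. IGF1R, the receptor of insulin-like growth factors, had 1.15 in the E-cadherin-low and -0.34 in the E-cadherin-high pair. Among 20 measured cytokine receptors 3 (15%) were higher and 1 (5%) lower, against 8.58% and 4.52% of all genes. IL13RA2, a decoy receptor for interleukin-13, read 698 against 16.9, a bound of 3.61, with a bound of 1.29 in the E-cadherin-high pair. IL1RAP, the shared chain of interleukin-1 receptors, was the lower one with -1.87.

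Genes that build the DNA replication fork had ratios below 0 in this pair, with 1 exception, and some passed 2-fold. Before S phase the MCM helicase is loaded at origins by ORC and CDC6, and the GINS complex and polymerases then start synthesis, so these genes mark dividing cells. Of 31 measured members 7 (22.6%, against 4.52% of all genes) were at least 2-fold lower and 0 higher, and 1 of 31 had a log2 ratio above 0. The median was -0.69, against 0.10 in the E-cadherin-high pair, where 0 of 31 passed 2-fold. On the E-cadherin-low CD133-high array 25 of 31 (80.6%) had their lowest signal, against 3233 of 10891 genes at large (29.7%). This was not particular to replication genes. The lowest signal was on that array for 30 of 34 ribosomal protein genes (88.2%) and 16 of 27 proteasome genes (59.3%). It was there for 8 of 16 housekeeping genes (50%) and 9 of 29 genes of oxidative phosphorylation (31.0%). Under alternative settings the median stayed between -0.77 and -0.61.

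The 7 encode subunits of the helicase and polymerases and factors that act at origins. GINS2, a GINS subunit, read 1604 with high and 4796 with low CD133 (-1.58), with 2630 and 4253 among E-cadherin-high cells. Much dimmer probe sets of GINS2 had -0.59 and -0.37 in the E-cadherin-low pair. MCM3, a helicase subunit, read 1088 against 3016 (-1.47), with 2048 and 2004 in the other pair, between the first 2. MCM2, another subunit, read 3564 against 7384 (-1.05) and 5906 against 6913 (-0.23). MCM10, which acts at origins, had -1.25, while its other probe sets had -0.82 and -0.53, short of 2-fold. The polymerase subunits POLE2 and POLA1 had -1.09 and -1.05, and the origin binder ORC1 -1.01. In the E-cadherin-high pair the brightest probe sets of these 4 genes had ratios of -0.34 to 0.29.

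E2F factors switch replication genes on at the G1 to S transition, and TTCCCGC is a core of their element. Searched on both strands of the 250 upstream bases, these letters were in 13 of 29 replication promoters (44.8%) and in 5.59% of all 27305. Promoters of MCM3 (chr6:52284743-52284992, minus strand) and GINS2 (chr16:85688955-85689204, minus strand), the genes with the 2 lowest ratios of the list, are printed 5' to 3' with the motif in capitals.
MCM3: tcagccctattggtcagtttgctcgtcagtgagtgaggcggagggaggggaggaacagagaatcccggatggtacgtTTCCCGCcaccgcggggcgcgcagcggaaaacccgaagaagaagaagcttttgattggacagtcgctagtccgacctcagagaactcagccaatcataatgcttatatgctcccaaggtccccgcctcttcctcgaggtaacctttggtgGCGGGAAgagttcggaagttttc
GINS2: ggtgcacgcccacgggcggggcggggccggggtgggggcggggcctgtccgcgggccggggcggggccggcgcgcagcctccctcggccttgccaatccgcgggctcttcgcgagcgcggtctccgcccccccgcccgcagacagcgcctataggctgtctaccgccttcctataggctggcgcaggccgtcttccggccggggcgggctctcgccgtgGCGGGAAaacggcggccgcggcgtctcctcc
The motif begins 173 and 23 bases before the start in MCM3 and 31 bases before it in GINS2.

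Other cell cycle genes were shifted less. Of 32 genes of mitosis 1 was at least 2-fold lower, the kinase gene CDK1 (4275 against 8576), with a list median of -0.36 among E-cadherin-low and 0.08 among E-cadherin-high cells. The other probe sets of CDK1 had log2 ratios of -0.52 to -0.10 in the E-cadherin-low pair, short of 2-fold. On the E-cadherin-low CD133-high array 21 of the 32 (65.6%) had their lowest signal, against 88.2% of the ribosomal protein genes. Among 19 regulators of G1, 5 were higher and 3 lower. CDKN1A, the cyclin kinase inhibitor p21, read 1710 against 337 (2.34), with 739 and 415 in the E-cadherin-high pair (0.83). CDKN1C, the inhibitor p57, had 1.87, and CDKN2B, the inhibitor p15, a bound of 1.38. CCNE1, cyclin E1, read 1487 against 2983, E2F2 had -1.22 and RBL1 -1.20, while E2F1 was higher with a bound of 1.96 on a dim probe set (222 against 49.5), and its other probe set had 0.08. Of 20 targets of p53, 4 were higher and 0 lower with a median of 0.33, and CDKN1A is 1 of the 4.

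**Figure D4:**
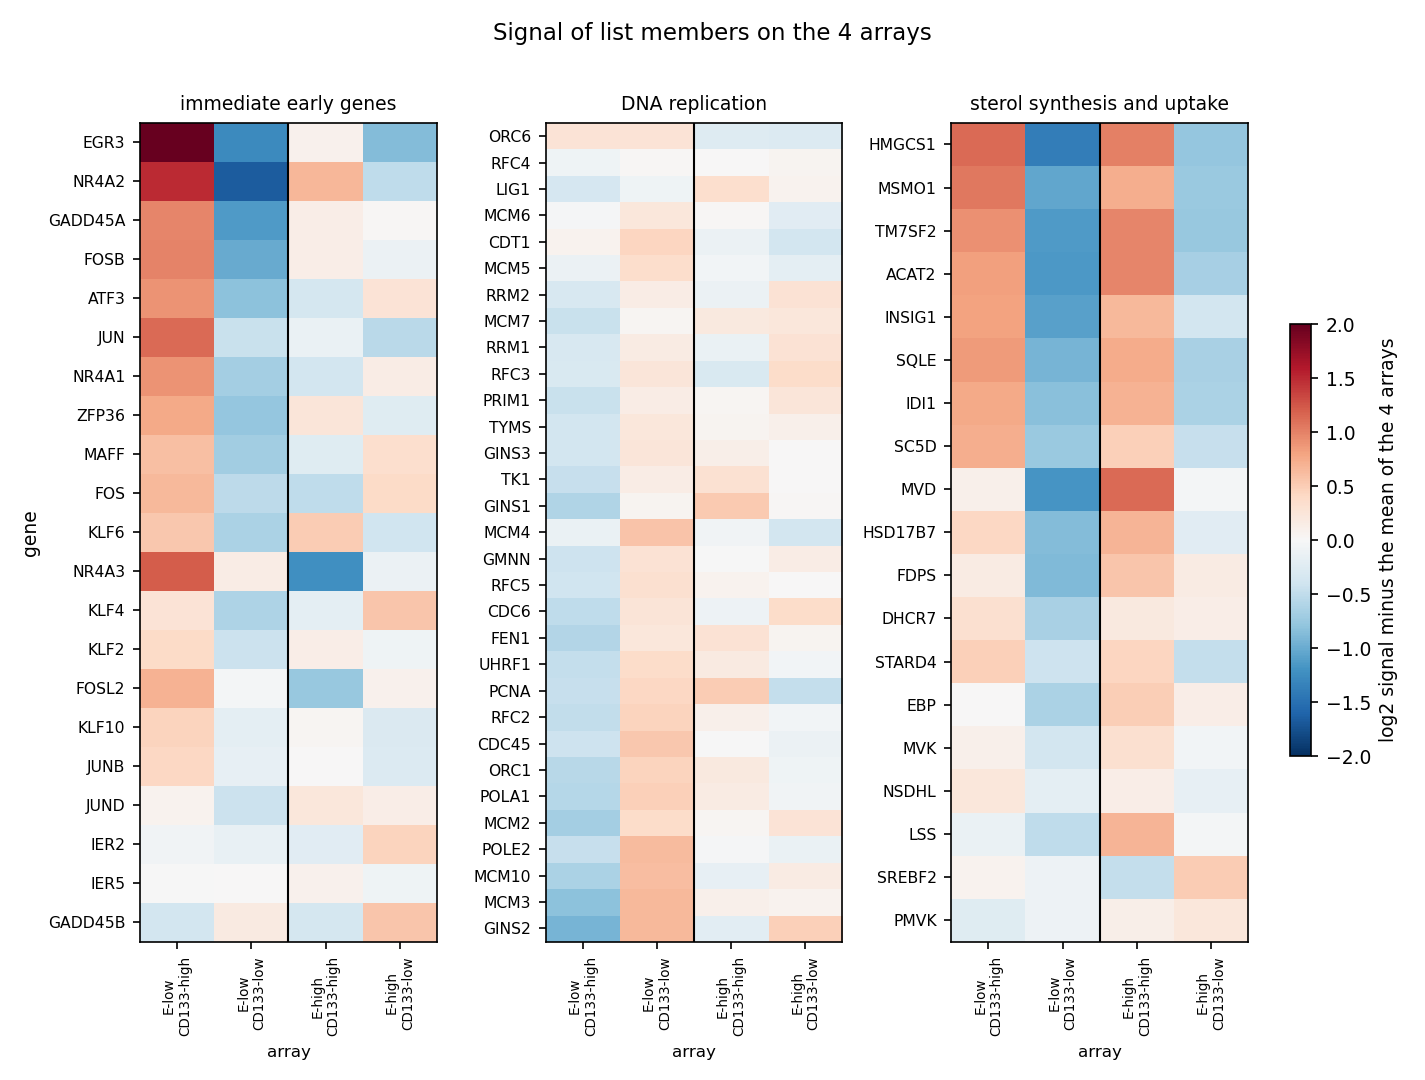
Signal of each measured member of 3 lists on the 4 arrays, as log2 signal minus the mean of the 4 arrays (colour), with genes ordered by their ratio in the E-cadherin-low pair. Immediate early genes are mostly red in the first column, replication genes mostly blue there, and sterol genes red in both CD133-high columns, with medians of 1.17, -0.69 and 1.28 in the E-cadherin-low pair and 0.11, 0.10 and 0.91 in the E-cadherin-high pair.

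Genes of cholesterol synthesis were higher with high CD133 in both E-cadherin states. The pathway turns acetyl-CoA through mevalonate and squalene into cholesterol, and SREBP2 activates its genes together when sterols are scarce. Of 19 measured members 11 (57.9%) were at least 2-fold higher and 0 lower among E-cadherin-low cells, with a median of 1.28, and 8 of 19 were higher in the E-cadherin-high pair, with a median of 0.91. Under alternative settings the first median ranged from 0.64 to 1.28. Of the 18 members above all 4 floors 15 had their lowest signal on the E-cadherin-low CD133-low array, as did 2941 of 10891 genes at large (27.0%). In fatty acid synthesis, a neighbouring pathway, 0 of 9 members were called either way, with a median of 0.20.

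Early and late steps of the pathway were both represented. HMGCS1, a synthase early in the mevalonate pathway, read 5778 against 1012 (2.51) and 5291 against 1544 (1.78), and its other probe set had 2.62 and 1.81. MSMO1, a late methyl sterol oxidase, read 14961 against 3479 (2.10) and 11873 against 4285 (1.47). TM7SF2, a sterol reductase, had 2.06 and 1.73, ACAT2, the first thiolase, 1.96 and 1.64, and IDI1, the isopentenyl isomerase, 1.59 and 1.33. FDPS, farnesyl diphosphate synthase, passed 2-fold in the E-cadherin-low pair alone, with 14087 against 6868 (1.04) and 18581 against 14157 (0.39). NPC1, which exports cholesterol from lysosomes, read 8459 against 2455 (1.78), with 3668 and 4117 among E-cadherin-high cells.

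Promoters of this pathway often pair an SREBP site with a CCAAT box, the site of NF-Y. CCAAT, on either strand, was in 15 of 18 sterol promoters (83.3%) and in 33.0% of all 27305. It was also in 17 of 29 replication promoters (58.6%) and 9 of 19 immediate early promoters (47.4%), and in 1 of 13 of the ERK list (7.69%). The sterol element core ACCCCAC was in 2 of 18 (11.1%) and in 5.36% of all. HMGCS1 (chr5:43313413-43313662, minus strand) and MSMO1 (chr4:165327419-165327668, plus strand) are shown because they had the 2 highest ratios of the list. Capitals mark CCAAT or its reverse complement.
HMGCS1: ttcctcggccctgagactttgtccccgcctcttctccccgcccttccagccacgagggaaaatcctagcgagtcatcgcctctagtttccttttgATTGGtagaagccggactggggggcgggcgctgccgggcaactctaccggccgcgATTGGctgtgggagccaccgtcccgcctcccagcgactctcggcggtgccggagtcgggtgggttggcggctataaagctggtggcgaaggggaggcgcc
MSMO1: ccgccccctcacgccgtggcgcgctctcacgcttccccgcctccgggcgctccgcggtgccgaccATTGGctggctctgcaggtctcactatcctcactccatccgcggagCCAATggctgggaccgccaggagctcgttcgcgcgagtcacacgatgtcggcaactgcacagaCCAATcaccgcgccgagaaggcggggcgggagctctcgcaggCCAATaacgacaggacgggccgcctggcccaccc
HMGCS1 holds 2 copies and MSMO1 holds 4.

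Several secreted proteins of the matrix were higher. Of 23 measured glycoproteins and proteoglycans 10 (43.5%, against 8.58% of all genes) were at least 2-fold higher, 1 lower and 12 neither, with a median of 0.72 among E-cadherin-low and 0.31 among E-cadherin-high cells. EDIL3, an integrin ligand, had bounds of 7.34 and 6.97 in the 2 pairs. LUM, the proteoglycan lumican, read 1390 against 131 (3.41) and 626 against 228 (1.46). VCAN, the large proteoglycan versican, read 553 against 119 (2.22) and 244 against 155 (0.65). GPC6, a glypican of the cell surface, was the lower one with -3.43 and -3.12. Of 19 collagens 3 were higher, 0 lower and 16 neither. COL12A1, a collagen that binds fibril surfaces, read 1019 against 230, with 109 and 69.6 among E-cadherin-high cells. COL1A2, a chain of type I collagen, read 435 against 18.6, with 65.1 and 18.8 in the other pair, where the ratio is a bound near the floor.

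Some proteins that act on the matrix and in clotting were also higher. Of 24 proteases and inhibitors 8 (33.3%) were at least 2-fold higher and 0 lower, with a median of 0.66 against 0.09 in the E-cadherin-high pair, where 3 of 22 were higher and 2 lower. PLAT, tissue plasminogen activator, read 620 against 26.7, at least 10.9-fold higher, with a bound of 1.07 on the log2 scale in the E-cadherin-high pair. TIMP2, an inhibitor of metalloproteases, had 2.30 and 1.17. Of 19 genes of coagulation and complement 9 (47.4%) were higher and 0 lower, with a median of 0.70 against 0.17. TFPI, the inhibitor of tissue factor, read 15938 against 2135 (2.90) and 20252 against 5444 (1.90). C1S, a protease of the first complement component, read 311 against 78.4 (1.99), with 58.1 and 85.1 in the other pair. SERPING1, which inhibits that protease, had a bound of 2.48 and a ratio of 1.42.

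Lists of antigen presentation and of the interferon response had positive medians. MHC class I carries peptides made by the proteasome to the cell surface, and class II those from endosomes. Of 13 class I genes 3 were at least 2-fold higher, 0 lower and 10 neither, with a median of 0.77 against 0.10 in the E-cadherin-high pair. TAP1, a peptide transporter, had 1.14, and the peptidases ERAP1 and ERAP2 had 1.33 and a bound of 1.37. In the E-cadherin-high pair TAP1 had 0.29, while ERAP1 passed 2-fold there too with 1.19. Other probe sets of ERAP1 had 0.11 and 1.80 in the E-cadherin-low pair. Of 9 class II genes 5 were higher and 1 lower, the endosomal protease gene CTSS (a bound of -1.20), with a median of 1.03 against 0.31. HLA-DMA, which helps load class II, read 813 against 265, with 882 and 586 among E-cadherin-high cells, and HLA-DQB1 read 546 against 189, with 499 and 444. In both genes the E-cadherin-low CD133-low array was the one set apart. Of 17 measured interferon-induced genes 6 were higher and 0 lower, with a median of 0.84 against 0.18. IFITM3, which blocks viral entry, read 11512 against 5118, with 10890 and 9396 in the other pair. The class II median ranged from 0.41 to 1.28 over the alternative settings and the interferon median from 0.70 to 0.88.

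Regulators of position and lineage in the HOX clusters were lower in both pairs. Of 25 measured HOX genes 16 (64.0%) were at least 2-fold lower and 0 higher in the E-cadherin-low pair, with a median of -1.61. The E-cadherin-high pair also gave 16 and 0, with a median of -1.499. HOXB6 read 177 against 2959 and 102 against 3319. GATA3, a zinc finger factor of several epithelial and blood lineages, read 154 against 3523 (-4.52) and 73.7 against 1470 (-4.32), and its 2 other probe sets were lower too. All 57 lists were chosen with earlier results of these data known, and the HOX list with these ratios known. Their counts are therefore a description. SP8, a zinc finger factor of the developing limb and brain, read 49.8 against 922 and lay below the floor on both E-cadherin-high arrays.

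The BMP pathway, whose receptors phosphorylate SMAD proteins that induce ID genes, had lower members at several levels. Of 20 measured genes 7 (35%) were at least 2-fold lower and 2 higher, with a median of -0.26 among E-cadherin-low and -0.51 among E-cadherin-high cells. The ligand BMP7 had -2.72, the transducer SMAD9 a bound of -4.79, the inhibitors SMAD6 and SMAD7 bounds of -2.59 and -1.40, the pseudoreceptor BAMBI -3.01, and the targets ID2 and ID3 the values above. FST, a secreted antagonist, was higher with a bound of 1.82, and the receptor BMPR1B had 1.05. In the E-cadherin-high pair 7 were lower and 0 higher. BMP7 was near equal there (-0.09), while BAMBI had -1.53 and SMAD6 -2.07. Of 14 measured genes of TGF-beta signalling 1 was higher and 1 lower, with a median of 0.12 among E-cadherin-low and -0.21 among E-cadherin-high cells. The higher one was TGFBR2, the type II receptor of TGF-beta, which read 922 against 363 (1.34), with 509 and 587 among E-cadherin-high cells. The lower one was SKIL, with -1.59 and -2.55 in the 2 pairs.

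Genes often used to describe stem-like cancer cells moved in both directions. Of 16 measured, 3 were at least 2-fold higher and 2 lower, with a median of 0.42 among E-cadherin-low and -0.28 among E-cadherin-high cells. Under alternative settings the first median ran from -0.19, without shared probe sets, to 0.38. ABCG2, the efflux pump of side-population cells, read 957 against 199 (2.27), with 301 and 391.8 in the other pair (-0.38). ALDH1A3, an aldehyde dehydrogenase, had 1.41 and -0.09. LGR4, an R-spondin receptor, had 1.99 and 1.86. The lower ones were TERT, the catalytic subunit of telomerase (-1.24), and SALL4, a factor of embryonic stem cells (-1.03). Of 28 genes of drug transport and detoxification 5 were higher and 1 lower. CYP1B1, a cytochrome of the dioxin response, read 1315 against 111 (3.56) and 714 against 194 (1.88). HMOX1, heme oxygenase-1, read 7586 against 1527, with 1639 and 1519 among E-cadherin-high cells (2.31 and 0.11). It was the single member called among 21 measured targets of NRF2.

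Some epithelial genes passed 2-fold within the low E-cadherin gate. Of 36 measured junction and polarity genes 5 were at least 2-fold higher and 1 lower, shares of 13.9% and 2.78% against 8.58% and 4.52% of all genes, with a median of -0.01. The median depended on the floor: it was 0.22 over the 28 members above all 4 floors, and over the alternative settings it ran from -0.10 to 0.48. JUP, the junction protein plakoglobin, read 1266 against 522, with 2132 and 1743 among E-cadherin-high cells, and TJP3, a tight junction scaffold, had 1.88 and 0.51. MUC1, an apical mucin, had 1.98 and 1.09. MAL2, a protein of apical transport, was the lower one, with 283 against 664 and far higher E-cadherin-high signals of 10870 and 8772. KRT8, a simple epithelial keratin, read 1081 against 406, with 1334 and 1493 in the other pair. Of 22 neuronal genes 7 were higher and 0 lower, with a median of 0.53 against 0.77 in the E-cadherin-high pair. PCLO, a scaffold of the presynaptic zone, read 3308 against 232 and SNAP25, a membrane fusion protein of synapses, 1300 against 137. Both also passed 2-fold in the E-cadherin-high pair, with 2.20 and 2.53.

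**Figure D5:**
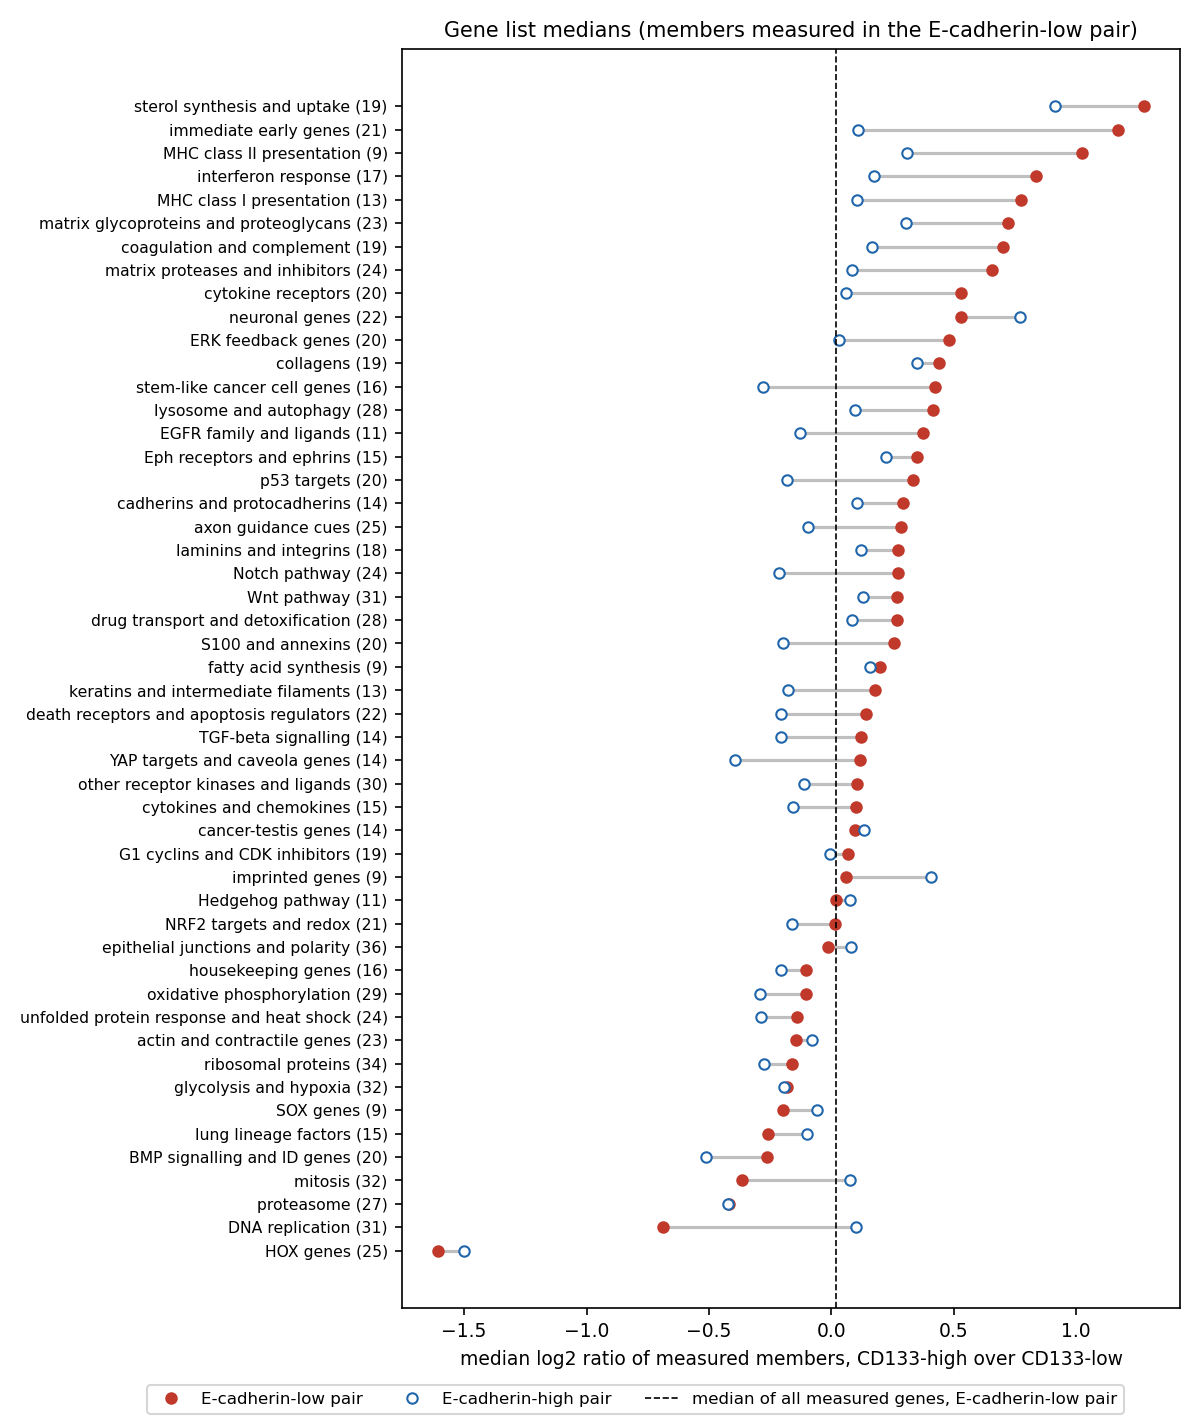
Median log2 ratio (CD133-high over CD133-low) of the measured members of each list with 9 or more, in the E-cadherin-low pair (filled) and the E-cadherin-high pair (open), with the median of all genes (0.02) as a dashed line. Sterol and HOX genes lie apart from the line in both pairs (1.28 and 0.91; -1.61 and -1.499), and immediate early and replication genes in the E-cadherin-low pair (1.17 and -0.69 against 0.11 and 0.10).

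Lists of basic functions stayed near the centre. Among 34 ribosomal protein genes 0 were called, with a median of -0.16, among 29 genes of oxidative phosphorylation 0, with -0.11, and among 16 housekeeping genes 0, with -0.10 and a range of -0.39 to 0.33. Of 27 proteasome genes 0 were called, but their median was -0.42 in both pairs. Markers of other cell types gave no list above the floor as a whole. Of 16 leukocyte markers 7 were measured, and PTPRC, the leukocyte phosphatase CD45, was the 1 called, with 1102 against 505 (1.13). The summed signal of that list was 1753 with high and 1220 with low CD133. Of 10 endothelial markers 2 and of 8 mesothelial markers 2 were measured, with 0 called in either. Of 14 fibroblast and mural markers 8 were measured and 4 were higher, LUM, DCN, COL1A2 and RGS5 (1.35, but -1.03 once shared probe sets were dropped), with summed signals of 24411 and 18282, while PDGFRA, PDGFRB and THY1 lay below the floor. What part markers of other cells have in the matrix results was not tested.

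Precision can be read from the probe sets alone. Where a called gene had another probe set above the floor, 485 of 543 higher genes (89.3%) and 259 of 289 lower genes (89.6%) had the same sign there, and 269 (49.5%) and 127 (43.9%) also passed 2-fold. At least 2-fold in the opposite direction were 3 and 3. Among 5527 genes with a pair of probe sets above the floor, the ratios of the 2 differed with an SD of 0.53 on the log2 scale. With genes above both floors split into 3 equal groups by signal, 15.6% of the 3823 dimmest genes, 13.2% of the middle group and 7.56% of the brightest passed 2-fold. For 255 of the higher and 95 of the lower genes the ratio is a bound, since 1 array lay at the floor. Probe sets of 1 gene share an array and a sample, so their agreement covers neither sorting nor culture.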

How the data were processed

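Total RNA of 4 sorted subpopulations of PC14 cells was hybridised to 4 one-colour Affymetrix arrays, 1 per subpopulation. The values used are the deposited intensity of each probe set on a linear scale, made with MAS5 per the submitters' processing notes, which as used here give no version of it. Trimmed by 2% at either end, the mean intensity was 500.1 on each array, so the deposited values were already scaled. The table holds no detection calls and no batch is named.

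Of 54675 probe sets, 62 were controls, 41097 had 1 gene symbol and 1801 had several, which were not used. Gene IDs of 41043 probe sets matched RefSeq (GRCh38.p14). For each of 19775 genes the brightest probe set was used, by mean log2 signal. Signals under the 50th percentile of an array were raised to it. A gene was measured in a pair when above that floor on at least 1 of its 2 arrays, and the log2 ratio of CD133-high over CD133-low signal was counted at 2-fold. Where 1 array lay at the floor, the ratio is a bound. Near equal means within 1.5-fold. With 1 array per group no test was run, and precision is limited by the number of arrays. The counting was checked on simulated data.

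Named are CDH1 and PROM1, the 15 genes with the largest ratios in each direction above both floors and the 10 brightest in each direction with 1 array at the floor. Also named are the 12 near-equal genes in each direction with the largest difference between pairs, the 6 in each direction that ran oppositely, and up to 6 members of each list past 2-fold, by size of ratio. Other list members (BMPR1B, CCNE1, DUSP6, DUSP7, ETV4, FDPS, FOS, FST, IDI1, IGF1R, MAFF, MET, NR4A1, ORC1, PDGFRA, PDGFRB, RBL1, SMAD7, THY1 and VCAN) were named after their values were seen. The members, the 57 lists and these rules were chosen with earlier results of these data known. Alternatives were quantile normalization, equal array medians, other floors, other thresholds, the mean over probe sets, dropping those with IDs that mark shared sequence, and genes above all 4 floors. Promoters are the 250 bases before the RefSeq start, 1 per symbol. Software was Python 3.11.15 with pandas 2.3.3, numpy 2.4.6 and matplotlib 3.10.9.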

Additional observations from a re-analysis of the deposited data

Results flagged for a closer look

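Of the genes past 2-fold in the E-cadherin-low pair, 21 higher and 11 lower ones passed 2-fold in the opposite direction in the E-cadherin-high pair, and 14 of them are named here. The difference between the pairs was not tested, since each subpopulation is 1 array. The first group was higher with high CD133 among E-cadherin-low and lower among E-cadherin-high cells. TFPI2, the matrix-bound protease inhibitor, had log2 ratios of 8.04 and -3.37, and its other probe set had 7.48 and -3.22. GNG11, a G protein gamma subunit, had a bound of 4.99 and a bound of -1.43. OLR1, a scavenger receptor for oxidised lipoprotein, read 1381 against 405 (1.77) and 62.2 against 824 (-3.73). EGR1 had 1.78 and -1.59, and the nuclear receptor NR4A3 had 1.06 and -1.11. Another probe set of NR4A3 had 0.60 and -1.60, so it fell short of 2-fold in the E-cadherin-low pair. BRINP3-DT, a transcript divergent from BRINP3, had 3.12 and -1.36. FIBCD1, a receptor that binds acetylated sugars, had 1.81 and -1.27, and EID3 had 1.25 and -1.06.

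The second group ran the other way. SELENOP, a secreted carrier of selenium, read 222 with high and 1890 with low CD133 in the E-cadherin-low pair (-3.09), and 2084 against 896 in the E-cadherin-high pair (1.22). A dimmer probe set of SELENOP had a bound of -1.28 and a ratio of 0.34, short of 2-fold in the E-cadherin-high pair. MDFIC, a regulator of myogenic factors, read 339 against 1406 (-2.05) and 3947 against 1495 (1.40). Dimmer probe sets of MDFIC ran the same ways, with -1.07 and 2.31, and with bounds of -1.19 and 2.74. MAP2K6, a kinase that activates p38, had -1.70 and 1.70, and FBXO43, an inhibitor of the anaphase-promoting complex, read 96.0 against 313 (-1.70) and 234 against 58.6. DUBR, a long non-coding RNA, had -1.36 and 1.68, and RCBTB2 had -1.24 and 1.26. The other probe set of DUBR had -0.37 and 2.48, short of 2-fold in the E-cadherin-low pair. MAP2K6 was dim, with signals of 77.6 to 269 over the 4 arrays. FBXO43 and RCBTB2 were dim too on the E-cadherin-high CD133-low array, with 58.6 and 80.4 against a floor of 57.4.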

How the results depend on the processing

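The floor and the threshold moved the counts most. As reported, 1142 genes were higher, 601 lower, and 463 and 269 of them near equal in the E-cadherin-high pair. In the same order the counts were 3088, 2407, 1055 and 811 with no floor, 2290, 1548, 819 and 561 with a floor at the 25th percentile, 2523, 1839, 1348 and 1122 at 1.5-fold, and 218, 83, 45 and 13 at 4-fold. A floor at the 65th percentile gave 760 higher genes, 298 of them near equal, since fewer genes were measured. Other settings kept the counts within 1.5 times, with 1036 higher and 694 lower genes after quantile normalization and 986 and 739 with equal medians. Of 263 named genes 262 had a value, and 2 changed sign: TCF3 from 1.27 to -0.013 as the mean over probe sets and to -0.056 without shared probe sets, and RGS5 to -1.03 without them. The cause was not tested. No paired analysis was possible because each group has 1 array. Dim signals, with no detection calls, limit the ratios near the floor.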

Other observations

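Genes that lie next to each other on a chromosome moved together in places. Among 13294 measured genes in RefSeq order there were 31 runs of 3 or more neighbours that were all at least 2-fold higher or all at least 2-fold lower in the E-cadherin-low pair. The longest held 11 genes of the HOXB cluster, from HOXB2 to HOXB9, with log2 ratios of -4.06 to -1.03. The next held 5 higher genes, HGF, CACNA2D1, PCLO, SEMA3E and SEMA3A, with ratios of 1.05 to 3.83, where HGF is the ligand of MET, CACNA2D1 a calcium channel subunit and the semaphorins guidance cues. Small proteoglycans and a growth inhibitor formed another, EPYC, LUM, DCN and BTG1, with 1.22 to 3.41. MCOLN2, MCOLN3, SYDE2 and C1orf52 were lower together, by ratios of -5.97 to -1.04. C1S, C1R and C1RL, proteases of the first complement component and a relative, were higher together by 1.69 to 1.99, while their ratios in the E-cadherin-high pair ran from -0.55 to 0.71. These runs were sought with results of these data known, and their number has no test.

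Guidance genes held further members past 2-fold. Of 25 measured axon guidance cues and receptors 6 were higher and 1 lower, with a median of 0.28 among E-cadherin-low cells. SEMA3A, a secreted repellent, read 2695 against 206 (3.71) and 1811 against 875 (1.05). SEMA6D, a membrane semaphorin, was the lower one, with 24.2 against 481, and had a bound of -1.64 in the E-cadherin-high pair. Among 15 Eph receptors and ephrins 3 were higher and 1 lower. EPHA5 read 859 against 135 (2.67), with 171 and 91.7 among E-cadherin-high cells. Of 14 cancer-testis genes 1 was higher, PRAME (1.08), and 2 were lower, against 8.58% and 4.52% of all genes. The lower ones were MAGEC1 and MAGEC2, which lay above the floor in E-cadherin-low CD133-low cells with 254 and 539 and below it on both E-cadherin-high arrays.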
